A study of Mus musculus with 4 samples.

Results

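The genes described here are 9 markers of the macroglial lineages, 7 of astrocytes (Gfap, Aqp4, Slc1a2, Slc1a3, Aldh1l1, S100b and Gja1) and 2 of oligodendrocytes (Mbp and Olig1), read in cultures of mouse microglia. They were chosen by name as genes through which RNA of other glia could be seen in a microglial culture. All 9 were found among the 54532 genes that both deposited tables hold, and 8 of them were among the 13811 protein-coding genes tested, since S100b had 4 counts over all libraries and the filter asked for 10.

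Primary microglia were prepared from the cortex of male CD1 mouse pups at postnatal day 1 to 3 and received epigallocatechin gallate (EGCG), a flavan-3-ol of green tea, at 1 µM for 24 h in medium without serum, or the DMSO vehicle. There were 2 libraries per group, numbered as replicates 1 and 2, which the submitters describe as independent biological replicates, and poly-A RNA was sequenced with a directional protocol. Both groups shared their whole history before treatment. The cells grew for weeks together with astrocytes in a mixed glial culture fed with serum and later GM-CSF, the astrocyte layer was then stripped off with dilute trypsin, and the cells that stayed on the dish were kept in a mixture of fresh and glia-conditioned medium and afterwards in serum-free medium with IL-34, TGFβ2, GM-CSF and cholesterol. The study's methods give no sorting step. Bulk RNA cannot separate few cells with much of a transcript from many cells with little, so fewer cells of a type and less RNA per cell cannot be told apart in any value below.

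Astrocytes take up glutamate and potassium from the space around synapses, are joined by gap junctions and wrap vessels with endfeet rich in water channels. Oligodendrocytes descend from precursors that need Olig transcription factors, and they wrap axons in myelin, of which myelin basic protein is a major component. In a mixed glial culture astrocytes form the supporting layer, oligodendrocyte precursors grow on top of it, and fibroblast-like cells of the meninges are common companions. Some of these genes are not restricted to macroglia: the gap junction gene Gja1 is also used by fibroblasts, and Mbp has an upstream promoter whose Golli transcripts are known in immune cells.

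The counts on genes summed to 33752397, 34259608, 36265508 and 54909854 in Vehicle replicate 1, EGCG replicate 1, Vehicle replicate 2 and EGCG replicate 2, the order in which 4 values are given throughout. Levels are given in CPM, counts corrected for depth with edgeR's TMM factors, or, where genes are compared with each other, in TPM, for which counts were first divided by the gene length in the files. A floor of 3 counts corresponded to between 0.0544 and 0.0936 CPM. Between the replicates 53.5% of the genes tested differed (edgeR quasi-likelihood test with treatment as a further term, Benjamini-Hochberg adjusted p under 0.1). The label of the cells was checked against 20 microglial markers, of which 19 exceeded 1 TPM, with a median of 270 TPM, whereas Siglech had 0, 0, 3 and 2 counts.

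Against that background the 9 macroglial genes were scarce, but they were not one low plateau. Their median was 0.588 TPM and 3 of 9 exceeded 1 TPM. Mbp stood at 23.3 TPM (range over the 4 libraries 21.9 to 24.9), a level above that of 65.3% of the genes tested. Aldh1l1 followed at 6.19 TPM (5.89 to 6.83) and Olig1 at 1.32 TPM (0.373 to 2.00). The remaining order was Slc1a3 at 0.662 TPM (0.481 to 0.745), Gja1 at 0.588 (0.00786 to 1.27), Gfap at 0.320 (0.0382 to 0.589), Aqp4 at 0.131 (0 to 0.321), Slc1a2 at 0.118 (0.0123 to 0.205) and S100b at 0.0498 (0 to 0.109). Mbp lay above Aldh1l1, and Aldh1l1 above Olig1, in every library. From Olig1 downwards each gene's range over the libraries overlapped that of its neighbour in the order. The plot of levels by marker list shows the 9 genes within the span of the other macroglial lists and mostly far below the microglial one.

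**Figure D1:**
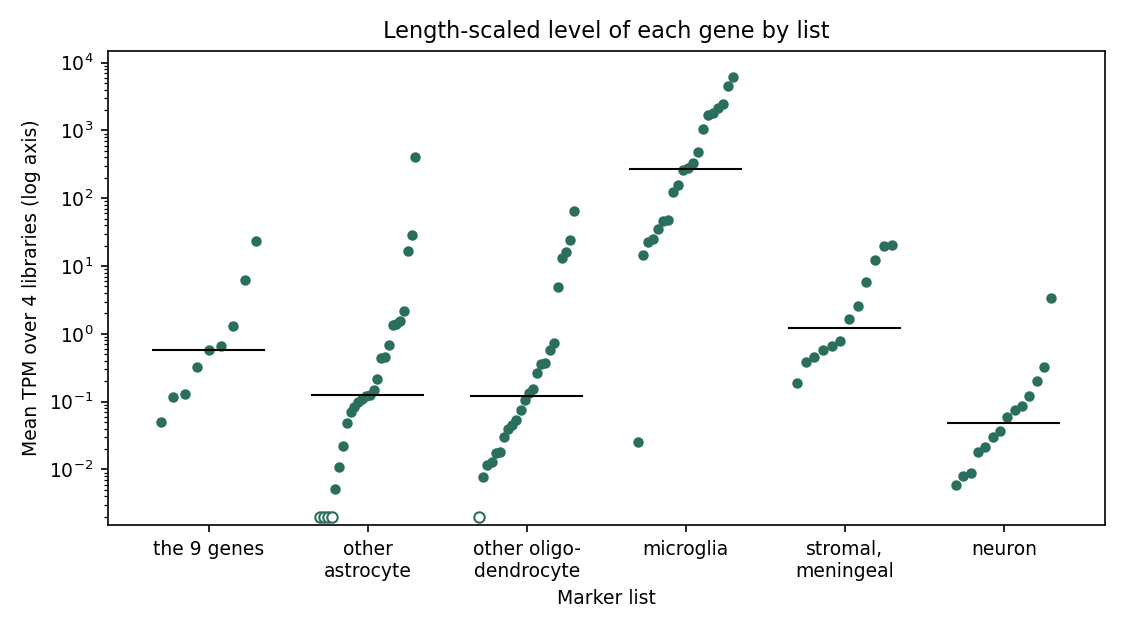
Mean level over the 4 libraries in TPM (log axis) of each gene, one point per gene, for the 9 genes and 5 other marker lists. Bars mark the median of each list and open points along the lower edge are genes with 0 counts in all libraries. The median of the 9 genes was 0.588 TPM against 270 TPM for the microglial list, whose single low point is Siglech.

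Mbp carried most of what these genes contributed. Summed over the 9 genes the counts were 2971, 2791, 3113 and 4718, which is 0.00880%, 0.00815%, 0.00858% and 0.00859% of each library. Mbp alone supplied between 76.7% and 83.4% of them and Aldh1l1 between 10.6% and 13.7%. The summed level was therefore nearly flat across libraries, at 90.5, 87.1, 84.9 and 85.5 CPM. The 7 remaining genes were not flat, with 10.7, 3.90, 5.07 and 6.47 CPM, and without Gja1 the last 6 gave 5.85, 3.87, 3.27 and 4.53 CPM. For both sums Vehicle replicate 1 was the highest library.

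**Figure D2:**
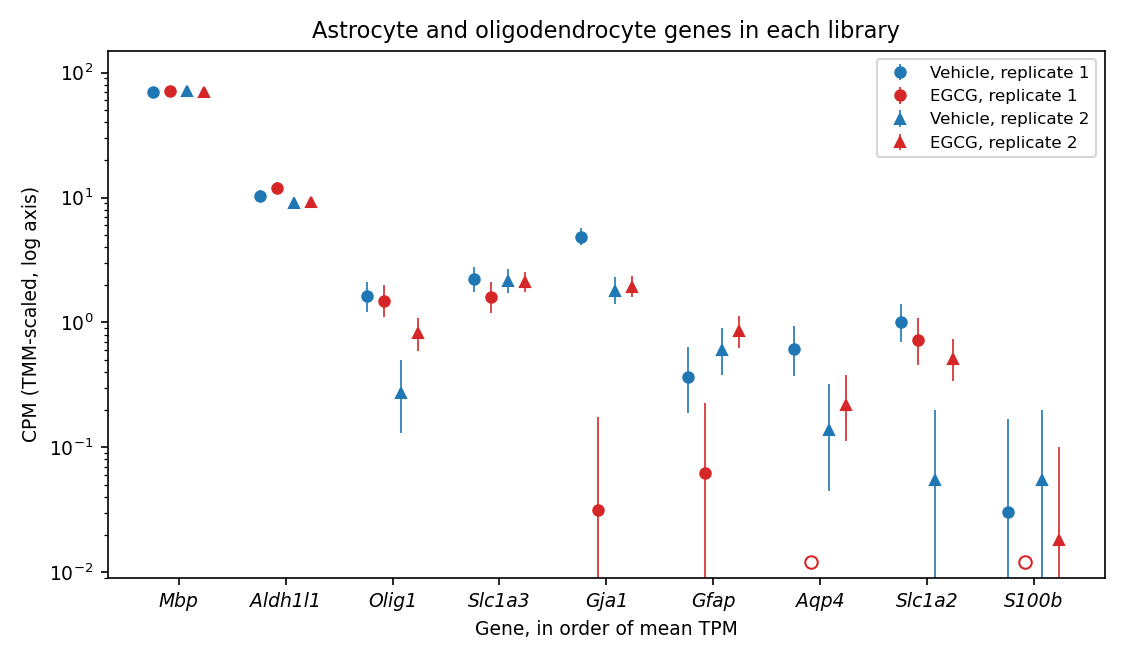
Level of each of the 9 genes in each library in TMM-scaled CPM (log axis), in order of mean TPM, with exact 95% Poisson intervals of the counts, which cover counting error only and may run below the axis. Open circles are counts of 0. Mbp and Aldh1l1 vary little between libraries, Gja1, Gfap and Aqp4 drop out in EGCG replicate 1, and Olig1 and Slc1a2 are lowest in Vehicle replicate 2.

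The 2 oligodendrocyte genes differed in level and in steadiness. Mbp (ENSMUSG00000041607, GRCm38.p6 chromosome 18, 82475146 to 82585637, plus strand), which encodes the myelin basic protein that compacts the myelin sheath, had 2280, 2283, 2597 and 3855 counts, or 69.5, 71.2, 70.8 and 69.9 CPM. Vehicle and EGCG libraries overlapped, as did the replicates, and all 4 values lay close together. The level was 70.2 ± 0.96 CPM in vehicle-treated and 70.6 ± 0.97 CPM in EGCG-treated microglia (mean ± SD, n = 2 each). The fitted log2 fold change for EGCG was 0.0081 ± 0.12 (SE, edgeR quasi-likelihood test fitted on treatment alone, unadjusted p = 0.947). The annotation of this build lists 16 Mbp transcripts, of which 4 start at the upstream Golli promoter and 12 start at least 79.3 kb further downstream. The counts are per gene, so Golli and classic myelin transcripts were not separated.

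Olig1 (ENSMUSG00000046160, chromosome 16, 91269772 to 91271933, plus strand) encodes a basic helix-loop-helix transcription factor of the oligodendrocyte lineage and is present from the precursor stage on. It had 53, 48, 10 and 45 counts, or 1.62, 1.498, 0.273 and 0.816 CPM. Both libraries of replicate 1 were above both of replicate 2, while the treatment groups overlapped, and Vehicle replicate 2 was far below the other libraries. Within replicate 1 EGCG and vehicle differed by -0.11 on the log2 CPM scale (prior count of 2), and within replicate 2 by 1.42. There the EGCG library was 2.99 times the vehicle library (95% interval from counting error 1.49 to 6.65). In the fit over all libraries the log2 fold change for EGCG was 0.29 ± 1.00 (edgeR unadjusted p = 0.786).

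The astrocyte gene with the highest level of the 7 was Aldh1l1 (ENSMUSG00000030088, chromosome 6, 90486427 to 90600203, plus strand), a folate enzyme used as a general marker of astrocytes. It had 339, 383, 330 and 506 counts, or 10.3, 11.95, 9.003 and 9.17 CPM. The replicates did not overlap, with replicate 1 higher, and the treatment groups did. EGCG-treated microglia had 10.6 ± 1.97 CPM and vehicle-treated microglia 9.67 ± 0.94 CPM (mean ± SD, n = 2 each), a log2 fold change of 0.13 ± 0.24 (edgeR unadjusted p = 0.619).

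The glutamate transporters behaved differently from each other. Slc1a3 (ENSMUSG00000005360, chromosome 15, 8634124 to 8710764, minus strand), which encodes the transporter GLAST found on radial glia and astrocytes, had 73, 51, 79 and 117 counts, or 2.22, 1.59, 2.16 and 2.12 CPM. EGCG replicate 1 was the lowest and the other 3 libraries were close together. Slc1a3 was the only one of the 8 genes tested whose groups did not overlap, with both EGCG libraries below both vehicle libraries, by a narrow margin in replicate 2. Groups did not overlap for 11.9% of all genes tested. The log2 fold change was -0.24 ± 0.37 (edgeR unadjusted p = 0.561), and the interval of the ratio within replicate 1 included no difference (0.715 times, 0.490 to 1.04).

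Slc1a2 (ENSMUSG00000005089, chromosome 2, 102658659 to 102790784, plus strand) encodes GLT-1, the transporter that mature astrocytes use for most glutamate uptake. It had 33, 23, 2 and 28 counts, or 1.01, 0.718, 0.0546 and 0.508 CPM. Vehicle replicate 2 was below the floor of 3 counts and the other 3 libraries were well above it. Both libraries of replicate 1 were higher than both of replicate 2, and the treatment groups overlapped. The difference between EGCG and vehicle had opposite signs in the replicates, -0.46 and 2.40 on the log2 scale, and the ratio of 9.30 in replicate 2 had a counting interval of 2.35 to 80.6. The fitted log2 fold change for EGCG was 0.21 ± 1.35 (edgeR unadjusted p = 0.884).

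Gja1 spread widely between libraries. Gja1 (ENSMUSG00000050953, chromosome 10, 56377330 to 56402513, plus strand) encodes connexin 43, the main gap junction protein of astrocytes. It had 160, 1, 66 and 107 counts, or 4.88, 0.0312, 1.80 and 1.94 CPM. EGCG replicate 1 was below the floor while its vehicle partner was the highest library, 156 times higher (27.6 to 6209 from counting error). In replicate 2 the EGCG library was 1.08 times the vehicle library (0.785 to 1.49). The groups overlapped, at 3.34 ± 2.17 CPM in vehicle-treated and 0.985 ± 1.35 CPM in EGCG-treated microglia (mean ± SD, n = 2 each). The log2 fold change was -1.73 ± 1.66 (edgeR unadjusted p = 0.355) and, with the replicate number as a block, -2.16 ± 1.47 (edgeR unadjusted p = 0.199).

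Gfap and Aqp4 followed the same order of libraries within replicate 1 at lower counts. Gfap (ENSMUSG00000020932, chromosome 11, 102887336 to 102900912, minus strand), the intermediate filament of astrocytes and the usual marker of their reactive state, had 12, 2, 22 and 47 counts, or 0.366, 0.0624, 0.600 and 0.852 CPM. EGCG replicate 1 was lowest and below the floor, the treatment groups overlapped, and both libraries of replicate 2 were above both of replicate 1. Vehicle exceeded EGCG 5.86 times in replicate 1 (1.30 to 53.9) and EGCG exceeded vehicle 1.42 times in replicate 2 (0.839 to 2.47). The log2 fold change for EGCG was -0.051 ± 1.27 (edgeR unadjusted p = 0.970).

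Aqp4 (ENSMUSG00000024411, chromosome 18, 15389394 to 15403684, minus strand), the water channel of the astrocyte endfoot, had 20, 0, 5 and 12 counts, or 0.610, 0, 0.136 and 0.218 CPM. Vehicle replicate 1 was 6.51 times the level that the floor of 3 counts would give in EGCG replicate 1, which had 0. The counting interval of the ratio started at 4.82 and had no upper limit. In replicate 2 the order was the opposite and within counting error (1.59 times, 0.523 to 5.78). The groups overlapped, and the log2 fold change was -1.64 ± 1.66 (edgeR unadjusted p = 0.373).

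S100b (ENSMUSG00000033208, chromosome 10, 76253853 to 76261159, plus strand) encodes a calcium-binding protein of astrocytes and of part of the oligodendrocyte lineage. It had 1, 0, 2 and 1 counts, all at or under the floor, so no fold is given and no level above the floor was detectable at this depth. The gene overlaps Dip2a on the opposite strand, which had 1342 to 2093 counts per library. Of the other 8 genes, Mbp holds a pseudogene on the opposite strand with 63 to 108 counts per library and Gfap a long non-coding RNA with 2 to 13. The library was directional, but the strand setting of the counting is not given in the sources used here, so counts of these overlapping genes are uncertain.

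The question of the study was how EGCG alters the microglial transcriptome, and none of the 8 genes passed the test. At an unadjusted p under 0.05 the edgeR test fitted on treatment alone called 0 of the 8, against 0.116% of all genes tested (16 of 13811). DESeq2 also called 0 of the 8, against 24 of all 13811 genes tested. With the replicate number as a block edgeR called 0 of the 8 against 3.21% of all genes (444). The errors of the fit on treatment alone include the difference between replicates. Blocked log2 fold changes were -0.55 ± 0.85 for Gfap, 0.89 ± 0.95 for Slc1a2, 0.64 ± 0.53 for Olig1 and -1.54 ± 1.56 for Aqp4. For Slc1a3, Aldh1l1 and Mbp they were -0.25 ± 0.27, 0.12 ± 0.11 and 0.0078 ± 0.058 (edgeR unadjusted p of 0.276 to 0.897 over these genes). After adjustment none of the 8 passed a threshold of 0.1. Over all genes tested few did, 0 (edgeR), 1 (DESeq2), 1 (edgeR with the block) and 7 (DESeq2 with the block). In the first fit 4 genes were higher and 4 lower with EGCG, with a median log2 fold change of -0.021 (0.011 over all genes tested), and in the blocked fit the split was again 4 and 4 with a median of -0.12 (0.015 over all genes). With 2 libraries against 2 the smallest two-sided p of an exact permutation test is 0.333, and the p-values here come from the models. All but Mbp and Aldh1l1 had at most 160 counts in any library. In the fit on treatment alone the standard errors of their log2 fold changes, where fitted, ran from 0.37 to 1.66. Leaving out EGCG replicate 2 gave a call for Gja1 (-6.61, edgeR unadjusted p = 0.00752) and leaving out Vehicle replicate 1 gave one for Slc1a2 (3.41, edgeR unadjusted p = 0.0497). Each leaves 1 library in a group, which is then assumed to vary like the other group.

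For 6 of the 8 genes the difference had opposite signs in the replicates, whereas Slc1a3 was lower (-0.47 and -0.02) and Aldh1l1 higher (0.21 and 0.03) with EGCG in both. Within replicate 1 EGCG was lower than vehicle for 6 of the 8 genes and higher for 2, with a median difference of -0.46 on the log2 scale. Within replicate 2 it was lower for 2 and higher for 6, with a median of 0.29. Gja1, Aqp4 and Gfap were lower by more than 1 in replicate 1, which was so for 5.45% of all genes tested, and none of the 8 was lower by more than 1 in replicate 2 (1.48% of all genes). Each of these values compares 1 library with 1 library and has no replicate check. The plot of differences within replicates shows both directions.

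**Figure D3:**
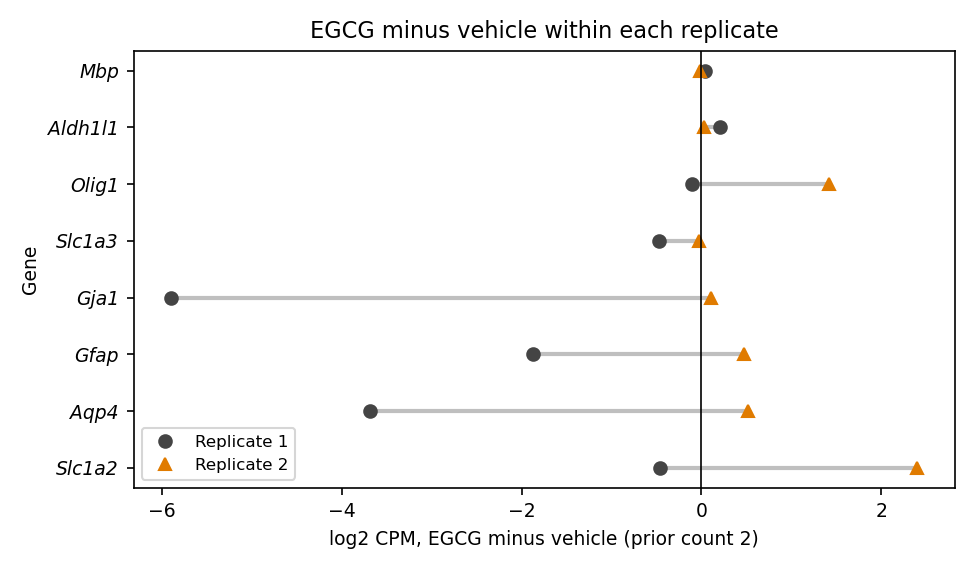
Difference between EGCG and vehicle in log2 CPM (prior count of 2) within replicate 1 and within replicate 2 for the 8 genes tested, joined by a line for each gene. Mbp and Aldh1l1 stay near 0 in both replicates, Gja1 lies at -5.90 in replicate 1 and 0.10 in replicate 2, and Slc1a2 at -0.46 and 2.40.

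In the library where Gja1, Aqp4 and Gfap dropped out, markers of stromal and meningeal cells were also near 0. The 12 stromal genes summed to 431, 2.06, 162 and 180 CPM. All 12 were lower by more than 1 in EGCG replicate 1 than in its vehicle library (5.45% of all genes tested), with a median difference of -4.87. None was in replicate 2 (1.48% of all genes), where the median was -0.0084. The fibrillar collagen genes led the list. Col1a1 had 3962, 4, 1344 and 2040 counts, Col3a1 had 4417, 6, 2189 and 4376, and Col1a2 had 4469, 3, 1576 and 2347. Pericyte and smooth muscle markers were also lowest there, with a sum of 32.4, 1.19, 6.44 and 11.96 CPM, led by Tagln, Acta2 and Cnn1. Tagln had 684, 11, 138 and 316 counts and Acta2 353, 19, 89 and 319. Kcnj8 was at 0 in every library, Rgs5 had 1, 0, 0 and 0 counts and Myh11 3, 4, 1 and 4. In replicate 1, 4 of the 5 tested were lower by more than 1 with EGCG (5.45% of all genes tested). In replicate 2, 4 were higher and 1 lower, with a median difference of 0.66. The part of these cells in the values of Gja1, Aqp4 and Gfap was not tested. Within replicate 1 the differences of Mbp, Aldh1l1 and Olig1 were 0.04, 0.21 and -0.11, and those of Slc1a3 and Slc1a2 were -0.47 and -0.46. The treatment-only fit called none of the 12 stromal genes, and the blocked fit called Ogn, a small proteoglycan with 46, 0, 1 and 1 counts (-4.74, edgeR unadjusted p = 0.0329).

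**Figure D4:**
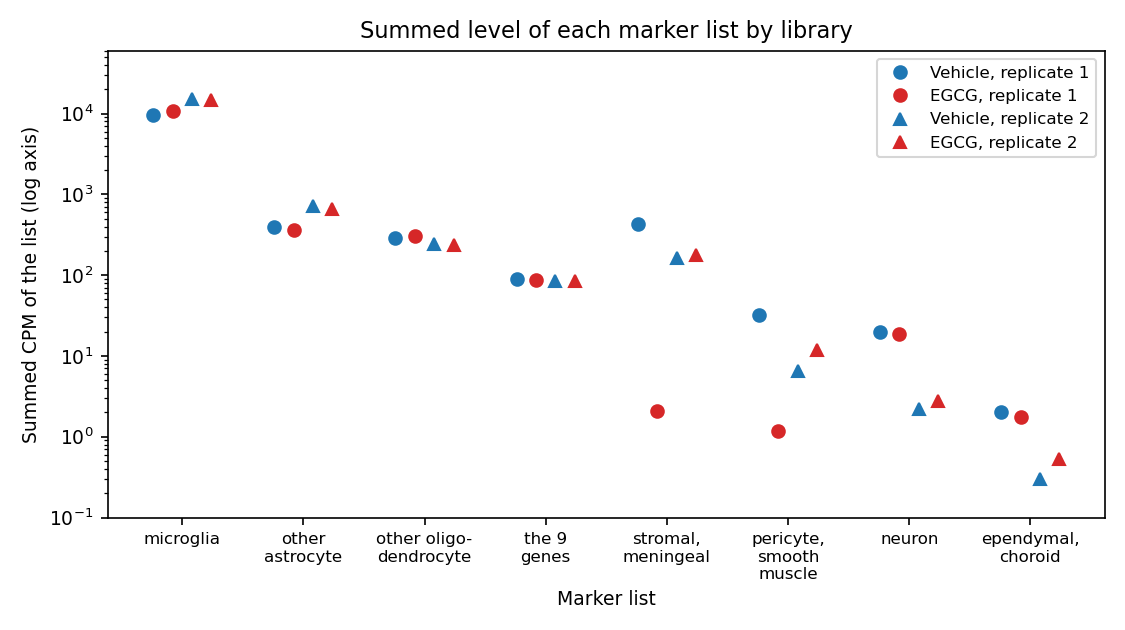
Summed level of each marker list in each library in TMM-scaled CPM (log axis). The 9 genes together lie between 84.9 and 90.5 CPM in all libraries, whereas the stromal list is at 2.06 CPM in EGCG replicate 1 and between 162 and 431 CPM in the others, and the neuronal list is higher in both libraries of replicate 1.

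The genes whose pattern over the 4 libraries was most like that of Gja1 were Fstl1, Cemip and Hspg2. Likeness was the root mean square difference of centred log2 CPM over 4 libraries, searched among 11601 other protein-coding genes with at least 100 counts. It was 0.0978 for Fstl1, a secreted follistatin-like glycoprotein, which had 1581, 21, 657 and 925 counts. It was 0.156 for Cemip, a protein of hyaluronan breakdown (421, 4, 130 and 233 counts), and 0.178 for Hspg2, the basement membrane proteoglycan perlecan (364, 3, 164 and 220 counts). No further gene came within 0.2. For Olig1 the nearest were Sorcs1 at 0.0564, Nek2 at 0.0904 and Cox7a1 at 0.141, with 14 genes within 0.2, and Sorcs1 showed the same low value in Vehicle replicate 2 (73, 69, 15 and 59 counts). The steady genes had many near neighbours. Within 0.2 there were 6475 genes for Mbp (nearest Tm9sf3, Pafah1b2 and Usp5), 4417 for Aldh1l1 (Ccz1, Mxd1 and Ap1ar) and 2827 for Slc1a3.

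Between the replicates a pair of these genes differed. In the edgeR fit with treatment as a further term, 2 of the 8 genes passed an adjusted p of 0.1 between replicates, against 53.5% of all genes tested. Olig1 was lower in replicate 2 by a log2 fold change of -1.63 ± 0.54 (edgeR adjusted p = 0.0579), lower in 2 of 2 libraries. Aldh1l1 was lower in replicate 2 by -0.29 ± 0.11 (edgeR adjusted p = 0.0847), also in 2 of 2 libraries. Slc1a2 at -1.89 ± 0.95 (edgeR adjusted p = 0.164) and Gfap at 1.92 ± 0.86 (edgeR adjusted p = 0.126) did not pass, although their replicates did not overlap. Aqp4, Slc1a3 and Gja1 had values of -0.057, 0.18 and 0.80 with adjusted p of 0.616 or more.

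The call of Olig1 was lost without Vehicle replicate 2 (-0.91, edgeR adjusted p = 0.139), its lowest library, and that of Aldh1l1 in DESeq2 (-0.31, adjusted p = 0.382), with genes of all classes (-0.25, edgeR adjusted p = 0.126) and with EGCG replicate 1, Vehicle replicate 2 or EGCG replicate 2 left out, where its log2 fold changes were -0.19, -0.26 and -0.30 (edgeR adjusted p of 0.195 to 0.277). Fits with a library left out had replicate as the only term and set 2 libraries against 1. They compare with the fit on all libraries with that term alone. There 3 of the 8 passed, against 7824 of all 13811 genes tested. The 3 were Aldh1l1, Olig1 and Gfap, the last at 1.75 (edgeR adjusted p = 0.0877). Gja1 and Aqp4 passed in opposite directions, higher in replicate 2 without Vehicle replicate 1 (5.77 and 5.94) and lower without EGCG replicate 1 (-1.38 and -1.73, edgeR adjusted p of 0.0540 at most). Gfap passed without Vehicle replicate 1 (3.49, edgeR adjusted p = 0.00485) and in no other of these fits, and Slc1a2 passed without EGCG replicate 1 (-1.70, edgeR adjusted p = 0.0864) or EGCG replicate 2 (-3.89, edgeR adjusted p = 0.0397).

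Mbp differed between the replicates by less than its error, at a log2 fold change of -0.00019 ± 0.058 (edgeR adjusted p = 0.998). Over the 8 genes the median was -0.029, and over all genes 0.0078. The replicates did not overlap for 4 of the 8 genes (Aldh1l1, Olig1, Slc1a2 and Gfap) and for 76.5% of all genes tested. Libraries of a replicate may come from the same culture, so these p-values measure the spread within a pair.

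Other astrocyte genes were mostly scarce, with a median of 0.124 TPM, and ranged from the abundant Glul to genes without a count. Of 26 such genes, 7 exceeded 1 TPM, 19 were tested, and Cldn10, Gjb6, Ntsr2 and Slc7a10 had 0 counts in all libraries. Glul, the glutamine synthetase, reached 405 TPM, Fabp7, a brain fatty acid-binding protein of radial glia and precursors, 29.2 TPM and the potassium channel gene Kcnj10 16.9 TPM. The treatment-only fit called none of the 19. The blocked fit called 1, Glul, at a log2 fold change of -0.14 (edgeR unadjusted p = 0.0443), lower with EGCG in both replicates, and its adjusted p was 0.995. Within replicate 1 the EGCG library was lower by more than 1 for 4 of the 19, as for Gja1, Aqp4 and Gfap (5.45% of all genes tested). Within replicate 2 it was so for 1 of the 19 (1.48% of all genes). The 4 were Id3, an inhibitor of helix-loop-helix factors (52, 6, 62 and 113 counts), the bicarbonate transporter Slc4a4 (19, 2, 12 and 17), the transcription factor Sox9 (12, 2, 4 and 12) and Slc39a12 (2, 0, 14 and 9), which was also the 1 gene in replicate 2.

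Between replicates 7 of these 19 genes passed, 2 higher and 5 lower in replicate 2, where 53.5% of all genes tested passed. Glul was higher in replicate 2 by 1.06 on the log2 scale (edgeR adjusted p = 0.000199). Fabp7 had 822, 785, 79 and 177 counts, a log2 difference of -3.21 between replicate 2 and replicate 1, and Aldoc, a brain aldolase, had 102, 81, 17 and 22 counts, a difference of -2.69. For Acsbg1, an acyl-CoA synthetase, the difference was -2.47 and for Clu, the secreted chaperone clusterin, -1.12. The other two calls were Slc39a12, a zinc transporter, at 3.15 and Ptprz1 at -2.09. Ptprz1, a receptor phosphatase of precursors and astrocytes, had 64, 51, 5 and 48 counts, and its lowest library was Vehicle replicate 2, as for Olig1 and Slc1a2.

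Genes known to rise in reactive astrocytes were led by transcripts that microglia and stromal cells also make. The 15 genes summed to 3438, 3250, 2211 and 2376 CPM, with Vim at 1112 TPM, Cd44 at 161 TPM and Ggta1 at 123 TPM. The treatment-only fit called none of the 15, and the blocked fit called Timp1, an inhibitor of metalloproteinases (-2.10, edgeR unadjusted p = 0.0465), which had 1075, 62, 588 and 592 counts. Within replicate 1 the EGCG library was lower by more than 1 for 7 of the 15 (5.45% of all genes tested). Within replicate 2 it was so for none (1.48% of all genes), as for Gja1 and the stromal genes. Between replicates, where 53.5% of all genes passed, 2 were higher in replicate 2, Cp (ceruloplasmin) at 1.23 and Lcn2 (a lipocalin) at 2.47 on the log2 scale, and 5 were lower, Nes at -1.43, Emp1 at -0.76, Ggta1 at -0.67, Vim at -0.66 and Fkbp5 at -0.46. Vim and Nes, the intermediate filament genes that accompany Gfap in reactive astrocytes, were thus lower in replicate 2, where Gfap had its 2 highest values.

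The level of Mbp was close to that of Cnp and far above most genes of mature myelin. Of 24 further lineage genes 5 exceeded 1 TPM, which were the deacetylase gene Sirt2 (65.2 TPM), Cnp, a phosphodiesterase of the myelin sheath (24.0), Myrf, a transcription factor of myelination (15.9), the precursor proteoglycan gene Cspg4 (13.04) and the myelin adhesion gene Mag (4.94). Cnp had 946, 948, 1207 and 1852 counts and was, like Mbp, nearly level within each replicate. The myelin genes Mog and Mobp had 1 and 5 counts over all libraries, and Opalin had 0. The precursor genes Pdgfra (122, 141, 43 and 95 counts) and Olig2 (17, 30, 8 and 28) were lowest in Vehicle replicate 2, as was Olig1.

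Among the 15 lineage genes tested EGCG had no call in the treatment-only fit, and the blocked fit called Myrf (0.24, edgeR unadjusted p = 0.0179), higher with EGCG in both replicates. Between replicates, again against 53.5% of all genes, 2 were higher in replicate 2, Sirt2 at 0.34 and Cnp at 0.19 on the log2 scale, and 4 were lower, Myrf at -1.61, Pdgfra at -1.50, Cspg4 at -0.90 and Mag at -0.36. The median over the 15 was -0.90.

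Few close relatives of these genes were above 1 TPM, 6 of 29 paralogues and family members. In all 14 had under 10 counts, among them Aqp5, Aqp7, Gjb6, Olig3 and Slc1a7 with 0. In the Slc1 family the neutral amino acid transporters Slc1a5 at 15.9 TPM and Slc1a4 at 5.19 TPM exceeded both glutamate transporters Slc1a3 and Slc1a2. Between replicates (53.5% of all genes) 1 of the 15 family members tested was higher in replicate 2, Slc1a4 at 0.64 on the log2 scale, and 4 were lower, among them Slc1a5 at -1.19, Vim and Nes. The fourth was Aqp9 (82, 70, 45 and 52 counts), at -1.12, an aquaporin whose counts were above those of Aqp4 in every library. Gjb2, a connexin of meningeal cells, had 39, 0, 3 and 17 counts, again with 0 in EGCG replicate 1, and the mitochondrial relative of Aldh1l1, Aldh1l2, had 150, 36, 130 and 174. EGCG had no call in this list in either edgeR fit, and DESeq2 with the block called Aldh1l2 (-1.07, unadjusted p = 0.0394).

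Markers of other cells that such a culture can hold were low, and several differed between replicates. The 14 neuronal genes summed to 19.8, 18.8, 2.21 and 2.79 CPM, and most of it in replicate 1 was Snap25, which had 566, 524, 19 and 36 counts (-4.82 between replicates, edgeR adjusted p = 0.000134), while Syp and Tubb3 averaged 0.330 and 0.204 TPM. The 8 endothelial genes summed to 183, 181, 73.1 and 81.4 CPM, led by Flt1, Pecam1 and Kdr. Of the 8, 4 had under 10 counts over all libraries, among them Cldn5 and Emcn at 0. The others were detected, Kdr with 169, 155, 109 and 155 counts and Cdh5 with 79, 26, 34 and 13. The 6 ependymal and choroid plexus genes summed to 2.04, 1.75, 0.300 and 0.526 CPM, led by Folr1, Foxj1 and Kcnj13, with Ccdc153 at 0. The microglial list, led by C1qa, Tyrobp and C1qb, summed to 9650, 10675, 15066 and 14577 CPM, with 10 of 19 genes higher and 6 lower in replicate 2 (53.5% of all genes tested passed in either direction). Of the genes described here, Aldh1l1 and Olig1 passed as higher in replicate 1, which had the lower microglial sum, and Slc1a2 also had its higher values there, whereas Gfap had its higher values in replicate 2. The part of the microglial share in these differences was not tested. For EGCG 8 neuronal, 4 endothelial, 2 ependymal and 19 microglial genes were tested. The treatment-only fit had 1 call over these lists (0.116% of all genes tested). It was the neuronal gene Stmn2 with 10, 1, 5 and 1 counts (-3.06, edgeR unadjusted p = 0.0415). The blocked fit had 4 (3.21% of all genes), which were Stmn2, Cdh5 and Sall1, lower with EGCG, and Trem2, higher.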

How the data were processed

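The authors filtered the paired-end reads for adapters and low quality, aligned them with HISAT2 to GRCm38.p6 and deposited raw, unscaled counts per gene, with 1 table per replicate and 1 column per treatment. The counting program, its strand setting, the annotation and the handling of multi-mapped reads are not given in the sources used here, and they bear on genes with overlaps or near-identical copies. Treatments came from the sample titles and the replicate of each table from the study's supplementary sample sheet.

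Rows of both tables were matched by Ensembl identifier (54532 genes, 22046 of them protein-coding). Loci assembled separately in each table took at most 0.156% of counts and were left out. Counts were tested in R 4.3.3 with edgeR 4.0.16 (TMM factors of 0.954 to 1.03, quasi-likelihood F test, two-sided, treatment as the only term) over protein-coding genes with at least 10 counts in all. The comparison of replicates had treatment as a further term. Thresholds were an unadjusted p under 0.05 and a Benjamini-Hochberg adjusted p under 0.1.

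Same-numbered libraries share a table, and and the difference between replicates was alike in vehicle and in EGCG libraries (Pearson r = 0.64 over 13811 genes, not independent replicates). A second fit therefore took the replicate as a block and is printed where it moves a count of calls. Log2 CPM was computed with a prior count of 2. TPM used the gene lengths in the tables. Intervals of counts are exact Poisson intervals and those of a ratio of 2 counts exact conditional binomial (Clopper-Pearson) intervals, both at 95% and for counting error only. Mbp transcripts were taken from GENCODE release M21.

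Alternatives covered DESeq2 1.42.0, the normalization, the filter, gene classes, the block and each library left out. The 9 genes and the marker lists were chosen with earlier results of these data known. Of each list the 3 genes with the highest mean TPM and up to 5 with the smallest adjusted p under 0.1 per comparison are named, with the 3 genes most like each of the 9 that had at least 100 counts. Siglech, genes at 0 and others given by their counts were named after their values were seen. The genes most like Slc1a3 and 1 further lineage gene are not reported here.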

Additional observations from a re-analysis of the deposited data

How the results depend on the processing

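Over 24 alternative counts of these genes called for EGCG, taken at both thresholds, 22 were again 0. At the adjusted threshold few genes of any kind passed, the most in DESeq2 with the block, 7. With 10 counts required in every library only 4 of the genes were tested, and without a filter all 9. The exceptions were fits with 1 library left in a group. The log2 fold change was 3.41 for Slc1a2 without Vehicle replicate 1 and -6.61 for Gja1 without EGCG replicate 2. With the replicate block 0 of the 8 passed in edgeR or DESeq2 (Gja1 -2.16 and -3.39), and over all genes the count at an unadjusted p under 0.05 was 16 without the block, 444 with it, 24 in DESeq2 and 153 in DESeq2 with the block. With 10 counts required in every library it was 3, and with all gene classes 35. The block changed no call of the 8. Between replicates the count of 2 became 1 in DESeq2, 3 with replicate as the only term, and with that term alone 0 to 5 with single libraries left out: 5 without Vehicle replicate 1, 4 without EGCG replicate 1 and 0 without Vehicle replicate 2. Gfap passed with all gene classes (adjusted p = 0.0932) and with replicate as the only term (0.0877).

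The sign for EGCG turned for Mbp with upper-quartile factors (-0.011) and with 10 counts in every library (-0.0026), and with single libraries left out for Gfap (-2.91 to 0.81), Slc1a2 (-0.74 to 3.41), Aldh1l1 (-0.078 to 0.28), Mbp (-0.0082 to 0.0053) and Olig1 (-0.51 to 2.07). Between replicates it turned for Aqp4 in DESeq2 (0.83), Gja1 with replicate as the only term (-0.39) and Mbp without a filter (0.0075) or with all gene classes (0.039), and with single libraries left out for Aqp4 (-1.73 to 5.94), Slc1a3 (-0.062 to 0.42), Gja1 (-1.38 to 5.77) and Mbp (-0.022 to 0.02). The cause was not tested. Scaled to total counts, Mbp had a mean of 68.4 CPM in EGCG libraries, and over protein-coding counts alone the 9 genes took 0.00887% of the vehicle libraries. Depth limits S100b and every value under the floor of 3 counts, and 2 libraries per group limit the rest.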

Other observations

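The table of replicate 2 lists its genes in the order of their summed counts, with 0 of 54861 rows holding more counts than the row above. The table of replicate 1 does not, with 12886 of 55229 such rows. There Gfap stood on row 33 with 14 counts, where its rank by counts was 15624, and Slc1a3 stood on row 193 with a rank of 11565. Aqp4 was on row 342 (rank 14874), Mbp on row 491 (rank 2995), Slc1a2 on row 806 (rank 12901), Olig1 on row 1088 (rank 11897) and Gja1 on row 1870 (rank 11148). Its first 2000 rows held 64 genes with under 500 counts, and 21 of these were on the lists of astrocyte and oligodendrocyte genes, which hold 74 genes in all, 6 of them among the 9 described here. The first 2000 rows of the other table held no gene with under 500 counts. Of the 9 genes, 7 were among the first 2000 rows in replicate 1 and 0 in replicate 2. No value above uses the order of rows. This was noticed after the values were seen, and the order in which the first table was sorted is not given in the sources used here.

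Pecam1, the platelet and endothelial adhesion molecule, had 2, 3, 580 and 741 counts, a log2 difference of 7.51 between replicates (edgeR adjusted p = 0.000131), while Flt1 on the same list was lower in replicate 2 (-1.57, edgeR adjusted p = 0.000212). Cdh5, the endothelial cadherin, had 79, 26, 34 and 13 counts and was the 1 endothelial gene called for EGCG in the blocked fit (-1.75, edgeR unadjusted p = 0.00584), lower in both replicates.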
